A study of Mus musculus with 8 samples.

Results

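The step from 12 h to 24 h at 39 °C was examined in TTE3 cells as the difference between the 2 arrays titled 24 h and the 2 titled 12 h, 4 of the 8 arrays of the series. TTE3 is a line of mouse testicular Sertoli cells from transgenic mice that carry the SV40 large T-antigen in a temperature-sensitive form. Both groups carried that T-antigen and both had been moved to 39 °C, which the labels call the nonpermissive temperature, so they differed in hours at 39 °C and not in genotype or temperature. The other 4 arrays were 0 h, before the shift, and 6 h, 2 of each. The line stands for 1 immortalised source of Sertoli cells. Whether 2 arrays of a time stand for separate cultures is not said in the labels, so the spread behind each p-value is that of these samples alone and may be technical.

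Large T-antigen keeps cells cycling by binding p53 and the retinoblastoma family, and a temperature-sensitive form loses function at the higher temperature, which frees p53 and the retinoblastoma proteins. Free p53 switches on growth arrest genes such as Cdkn1a, and free retinoblastoma family proteins hold down cell cycle genes. A move to a higher temperature also sets off the heat shock response, which raises chaperones and then winds down. Sertoli cells are the nurse cells of the seminiferous tubule: they stop dividing as they mature and secrete proteins such as clusterin and transferrin.

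Each array gave 1 signal for each of 22626 probe sets, short probe groups that each read 1 transcript or transcript family, on the Affymetrix Mouse Expression Array 430A. Changes are differences of log2(signal + 22), an offset of 22 units that pulls the log2 change of dim genes towards 0; folds are 2 raised to the log2 change. Values after ± are standard errors of the limma fit, n = 2 arrays a time. A probe set was called, and is said to have risen or fallen, at a Benjamini-Hochberg adjusted p below 0.05 over the 13576 probe sets bright enough to test. The arrays had been scaled to 1 common mean, so a change in total mRNA per cell could not be seen, and fewer expressing cells and less RNA per cell cannot be told apart. Median signals ran from 138.5 to 154.7 units over the 8 arrays, and 3' to 5' ratios of the actin control from 1.03 to 1.13. Over all 22626 probe sets, none of them an independent replicate, the 12 h arrays correlated with each other at r = 0.979 and with the 24 h arrays at 0.976 to 0.979.

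Between 12 h and 24 h 934 of 13576 probe sets were called (6.88%), 512 higher at 24 h (3.77%) and 422 lower (3.11%), and 3066 had an unadjusted p below 0.05. Changes were modest: the median absolute log2 change of the called probe sets was 0.59, and 65 rose and 18 fell at least 2-fold. The 12 h and 24 h signals did not overlap in any called probe set, nor in 54.1% of all tested probe sets. Where lack of overlap is stated below for a called gene, it is thus no further evidence for its call. The split between directions depended on scaling. With each array centred on its median log2 value, 373 were higher and 510 lower, or 42.2% higher in place of 54.8%. The count was smaller without each of the 6 arrays of 0, 12 and 24 h that were left out in turn. It was 318 and 219 without the first or the second 12 h array, 142 and 84 without the first or the second 24 h array, and 474 and 488 without the first or the second 0 h array, and in each the remaining array of that time was taken to vary like the other groups. The 6 h arrays were not left out.

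**Figure D1:**
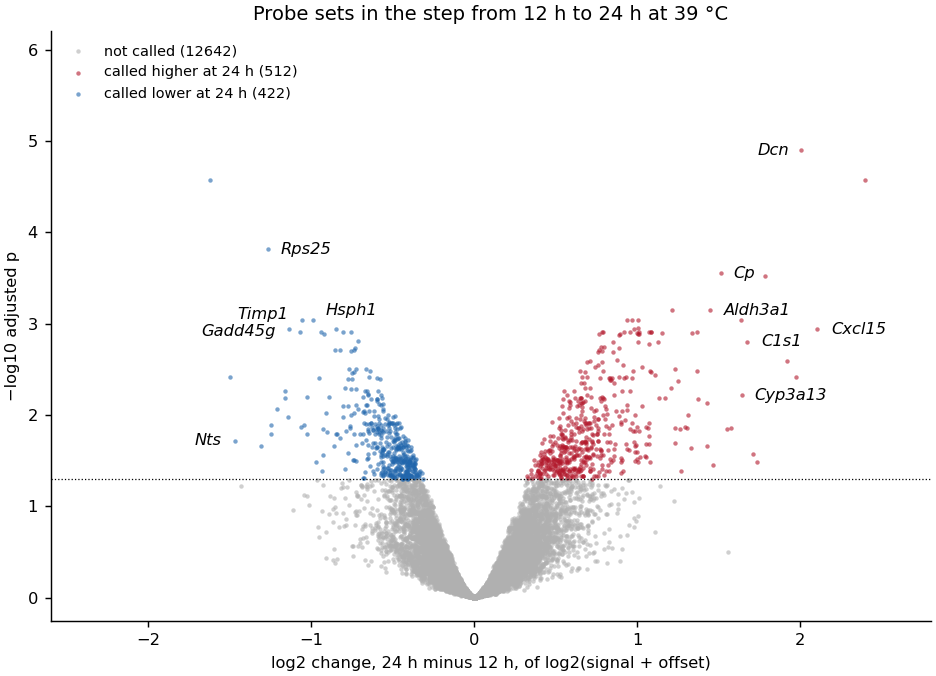
Log2 change from 12 h to 24 h (x axis) against −log10 of the adjusted p (y axis) for the 13576 tested probe sets, 2 arrays a time. Red points are the 512 called higher, blue points the 422 called lower, grey points were not called, and the dotted line marks an adjusted p of 0.05; the decorin gene Dcn has the smallest adjusted p.

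Dcn, which encodes the collagen-binding proteoglycan decorin, had signals of 1466 and 1403 units at 12 h and 6274 and 5423 at 24 h. Both 24 h arrays were far above both 12 h arrays, a 4.02-fold rise (2.01 ± 0.11, adjusted p = 1.27e-05). It was called under all 13 alternative settings. Cxcl15, a CXC chemokine gene, was at 95.7 and 107.8 units at 12 h and 519.3 and 500.9 at 24 h. It rose 4.30-fold (2.11 ± 0.23, adjusted p = 0.00115) with no overlap between times.

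C1s1, the gene of a serine protease that starts the classical complement cascade, had signals of 130.8 and 133.6 units at 12 h and 476.7 and 464.8 at 24 h, a 3.20-fold rise (1.68 ± 0.21, adjusted p = 0.00158). Cp, the gene of the copper-carrying ferroxidase ceruloplasmin, was at 394.6 and 389.6 units at 12 h and 1218 and 1105 at 24 h, 2.85-fold higher at 24 h (1.51 ± 0.13, adjusted p = 0.000279). The array read Cp with 6 tested probe sets, of which 5 were called higher, and their log2 changes ran from 1.14 to 2.40. In both genes the 12 h arrays were close to each other and clearly below the 24 h arrays. Aldh3a1, an aldehyde dehydrogenase gene, was at 366.9 and 337.9 units at 12 h and 925.8 and 1075 at 24 h (2.73-fold, 1.45 ± 0.14, adjusted p = 0.000714).

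Tnc, which encodes the matrix glycoprotein tenascin C, had signals of 307.7 and 205.5 units at 12 h and 691.5 and 678.3 at 24 h (2.58-fold, 1.37 ± 0.19, adjusted p = 0.00331). Cebpd, the gene of a C/EBP transcription factor, was at 295.5 and 276.0 units at 12 h and 764.8 and 778.4 at 24 h (2.58-fold, 1.37 ± 0.16, adjusted p = 0.00124). Dbp, a clock-controlled transcription factor gene, was at 163.3 and 213.1 units at 12 h and 506.6 and 502.2 at 24 h (2.52-fold, 1.33 ± 0.16, adjusted p = 0.00126). These 3 genes and those of the preceding paragraphs were 8 of the 15 largest rises, and each was called without any 1 of the 0 h, 12 h or 24 h arrays.

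The other 7 included a pair of cytochrome P450 genes and a keratin gene. Cyp3a13 was at 69.7 and 74.2 units at 12 h and 228.7 and 320.3 at 24 h (1.64 ± 0.26, adjusted p = 0.00605) and Cyp2j6 at 59.1 and 23.3 units at 12 h and 132.9 and 150.1 at 24 h (1.43 ± 0.31, adjusted p = 0.0216). The keratin gene Krt13 was at 158.2 and 195.0 units at 12 h and 463.4 and 560.2 at 24 h (1.43 ± 0.24, adjusted p = 0.00734). The rest were the calcium channel subunit gene Cacna2d1 (1.71 ± 0.39, adjusted p = 0.0264), the zinc finger gene Zfp1 (1.58 ± 0.31, adjusted p = 0.0138), Nbl1, which encodes a secreted antagonist of bone morphogenetic proteins (1.55 ± 0.30, adjusted p = 0.0143), and the Fanconi anaemia pathway gene Faap20 (1.74 ± 0.42, adjusted p = 0.0322). The 3 tested probe sets of Faap20 disagreed, with log2 changes from -0.03 to 1.74. Leaving out 1 array ended the calls of Cyp3a13 (24 h replicate 2, adjusted p = 0.0952), Krt13 (12 h replicate 1 or either 24 h array, adjusted p up to 0.102), Zfp1, Nbl1 and Cyp2j6 (12 h replicate 2 or either 24 h array, adjusted p up to 0.16) and Cacna2d1 and Faap20 (any of the 6 arrays of 0, 12 and 24 h, adjusted p up to 0.211). Calls ended as well without the filter on dim probe sets for Cyp2j6, Cacna2d1 and Faap20 (adjusted p up to 0.0938) and without the variance trend for Cacna2d1 and Faap20 (adjusted p up to 0.0882).

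**Figure D2:**
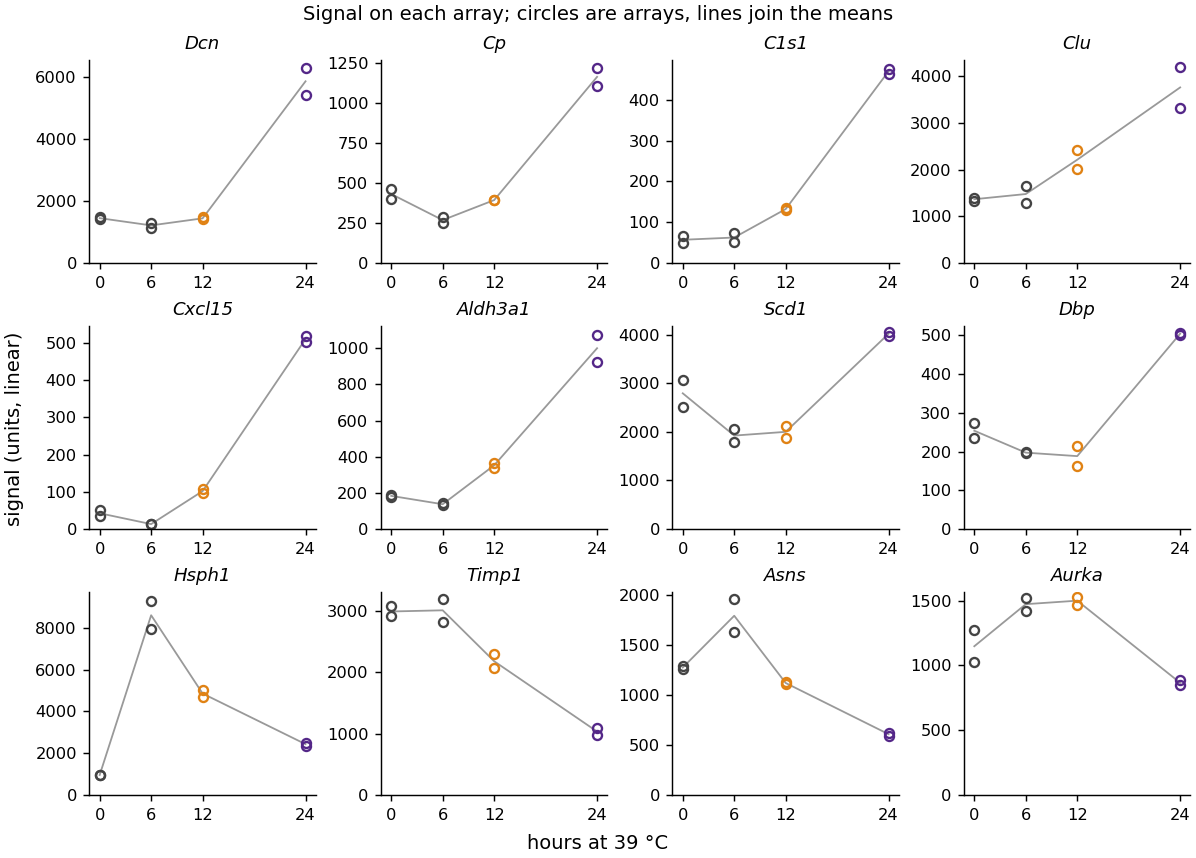
Signal in linear units (y axis, from 0) against hours at 39 °C (x axis) for 12 genes; each circle is 1 array and lines join the means of 2 arrays. The 24 h circles of Dcn lie at 5423 and 6274 against 1403 and 1466 at 12 h, while those of Hsph1, Timp1, Asns and Aurka lie below their 12 h circles.

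Fewer probe sets fell than rose by at least 2-fold, 18 against 65. Rps25, a small-subunit ribosomal protein gene, had signals of 1479.6 and 1604 units at 12 h and 626.1 and 627.6 at 24 h, a 2.41-fold fall (-1.27 ± 0.10, adjusted p = 0.000154). Gadd45g, a growth arrest and DNA damage inducible gene, was at 415.4 and 434.7 units at 12 h and 192.8 and 170.2 at 24 h (2.20-fold lower, -1.14 ± 0.12, adjusted p = 0.00115). Timp1, which encodes a secreted inhibitor of matrix metalloproteinases, was at 2291 and 2069.5 units at 12 h and 1095 and 975.4 at 24 h (2.08-fold lower, -1.06 ± 0.11, adjusted p = 0.0009). In all 3 both 24 h arrays were below both 12 h arrays by far more than 2 arrays of a time differed.

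Hsph1, the gene of the chaperone Hsp110, was at 5030.3 and 4683 units at 12 h and 2501 and 2371 at 24 h (1.98-fold lower, -0.99 ± 0.10, adjusted p = 0.0009). Pcolce2, which encodes an enhancer of procollagen processing, was at 710.9 and 670.9 units at 12 h and 332.4 and 368.3 at 24 h (1.92-fold lower, -0.94 ± 0.11, adjusted p = 0.00124). These 5 of the 15 largest falls were called without any 1 of the 0 h, 12 h or 24 h arrays.

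The other 10 were mostly dim. The ribosome assembly gene Wdr46 was at 164.1 and 186.7 units at 12 h and 74.7 and 58.5 at 24 h (-1.16 ± 0.18, adjusted p = 0.00543), and the ethanolamine kinase gene Etnk1 at 386.5 and 496.8 units at 12 h and 202.6 and 194.3 at 24 h (-1.06 ± 0.20, adjusted p = 0.0135). The neuropeptide gene Nts had the largest fitted fall of the 15 (-1.47 ± 0.31, adjusted p = 0.019), from 113.5 and 206.7 units at 12 h and 27.9 and 59.2 at 24 h, with wide gaps between arrays of a time. Also lower were Ppp1r3f, a glycogen-targeting phosphatase subunit gene (-1.31 ± 0.28, adjusted p = 0.0216), the actin-binding protein gene Tagln2 (-1.16 ± 0.19, adjusted p = 0.00652), the troponin gene Tnnt2 (-1.14 ± 0.21, adjusted p = 0.0105), the adaptor gene Sh3kbp1 (-1.04 ± 0.20, adjusted p = 0.0127) and Dlk2, a relative of the Notch ligands (-1.02 ± 0.17, adjusted p = 0.00628). The growth factor gene Fgf18 (-0.93 ± 0.24, adjusted p = 0.0412) and the chemokine gene Ccl7 (-0.93 ± 0.21, adjusted p = 0.0276) completed the set. The second tested probe set of Tagln2 was at 0.20, and those of Etnk1 reached 0.23. Calls that ended when 1 array was left out were those of Wdr46 (24 h replicate 2, adjusted p = 0.0688), Tagln2 (either 24 h array, adjusted p up to 0.066), Tnnt2 (12 h replicate 2 or 24 h replicate 1, adjusted p up to 0.0902), Dlk2 (12 h replicate 2 or 24 h replicate 2, adjusted p up to 0.0745), Etnk1, Nts and Ppp1r3f (12 h replicate 2 or either 24 h array, adjusted p up to 0.147), Sh3kbp1 (any 12 h or 24 h array, adjusted p up to 0.107) and Ccl7 and Fgf18 (any of the 6 arrays of 0, 12 and 24 h, adjusted p up to 0.295). Further losses came without the filter on dim probe sets for Nts, Ppp1r3f, Ccl7 and Fgf18 (adjusted p up to 0.113) and without the variance trend for Fgf18 (adjusted p up to 0.0625).

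Genes of mitosis were the list with the most members called lower. Each gene on a list stands by its brightest probe set; over all 7707 genes tested that way 567 were called (7.36%), 315 higher (4.09%) and 252 lower (3.27%), with a median log2 change of 0.003. Of 67 mitosis and G2 genes 26 fell, 0 rose and 41 were not called. Their median log2 change was -0.368, and 4 of 67 were above 0. The median stayed between -0.443 and -0.350 under the alternatives of scaling, filter, offset and left-out arrays. Mitosis genes called lower numbered 14 and 15 without the first or second 0 h array, 6 without either 12 h array, 6 and 1 without the first or second 24 h array, 8 without the variance trend and 15 without the filter on dim probe sets.

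Cenpf, the gene of a kinetochore protein, had signals of 1080.1 and 1108 units at 12 h and 626.0 and 669.7 at 24 h (1.67-fold lower, -0.74 ± 0.11, adjusted p = 0.00339). Aurka, which encodes the spindle kinase Aurora A, was at 1529.7 and 1469 units at 12 h and 884.7 and 847.1 at 24 h (1.71-fold lower, -0.78 ± 0.12, adjusted p = 0.00407), and Plk1, a mitotic entry kinase gene, at 1259 and 1375 units at 12 h and 812.7 and 681.7 at 24 h (1.75-fold lower, -0.80 ± 0.15, adjusted p = 0.0106). In each the 24 h arrays lay below the 12 h arrays without overlap. The spindle checkpoint kinase gene Bub1b (-0.66 ± 0.11, adjusted p = 0.00774), the spindle midzone gene Prc1 (-0.65 ± 0.13, adjusted p = 0.0143) and Cdk1, the kinase that drives mitosis (-0.46 ± 0.10, adjusted p = 0.0235), fell as well. The proliferation marker gene Mki67 was not called (-0.22 ± 0.12, adjusted p = 0.282). The calls that rested on single arrays were those of Aurka (24 h replicate 2, adjusted p = 0.0612), Plk1 (12 h replicate 2 or 24 h replicate 2, adjusted p up to 0.11), Bub1b (12 h replicate 1 or either 24 h array, adjusted p up to 0.0787), Prc1 (either 12 h array or 24 h replicate 2, adjusted p up to 0.147) and Cdk1 (any of the 6 arrays of 0, 12 and 24 h, adjusted p up to 0.191). Other settings ended calls too, without the variance trend for Prc1 and Cdk1 (adjusted p up to 0.0846) and without the filter on dim probe sets for Cdk1 (adjusted p up to 0.0559).

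Promoters are shown for 4 of the mitosis genes because their start regions share short sequences known from late cell cycle genes. The first is the cell cycle genes homology region, abbreviated CHR, read here as TTTGAA or its reverse complement TTCAAA. The second is the CCAAT box, read as CCAAT or ATTGG. Each RefSeq promoter runs from 250 bases before to 50 after a start on GRCm38.p6, 5′ to 3′ on the gene's strand, with both motifs in capitals.
Cenpf: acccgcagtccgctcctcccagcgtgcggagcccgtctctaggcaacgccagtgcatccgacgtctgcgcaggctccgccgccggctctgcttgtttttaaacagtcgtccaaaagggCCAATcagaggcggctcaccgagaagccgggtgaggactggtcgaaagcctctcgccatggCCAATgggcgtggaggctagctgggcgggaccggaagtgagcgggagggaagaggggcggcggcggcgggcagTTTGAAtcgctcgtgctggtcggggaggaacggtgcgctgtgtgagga
Aurka: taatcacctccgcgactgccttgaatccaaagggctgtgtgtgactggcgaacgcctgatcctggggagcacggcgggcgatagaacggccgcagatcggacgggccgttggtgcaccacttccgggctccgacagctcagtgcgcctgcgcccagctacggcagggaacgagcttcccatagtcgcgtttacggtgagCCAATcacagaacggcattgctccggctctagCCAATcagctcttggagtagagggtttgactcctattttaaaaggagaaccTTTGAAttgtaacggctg
Plk1: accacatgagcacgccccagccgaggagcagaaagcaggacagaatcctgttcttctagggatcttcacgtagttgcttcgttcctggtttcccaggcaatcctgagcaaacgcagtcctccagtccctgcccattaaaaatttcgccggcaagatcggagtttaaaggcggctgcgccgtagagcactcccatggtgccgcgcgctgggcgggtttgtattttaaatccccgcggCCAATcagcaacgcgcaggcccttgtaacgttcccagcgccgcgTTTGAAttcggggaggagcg
Cdk1: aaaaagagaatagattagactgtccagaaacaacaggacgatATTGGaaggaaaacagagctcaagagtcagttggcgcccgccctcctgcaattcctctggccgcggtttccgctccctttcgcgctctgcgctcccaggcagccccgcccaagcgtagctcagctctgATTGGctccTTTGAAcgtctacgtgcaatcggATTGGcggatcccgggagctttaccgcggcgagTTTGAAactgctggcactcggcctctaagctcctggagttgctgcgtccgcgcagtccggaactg
They lie at chr1:189688037-189688336 (- strand, Cenpf), chr2:172370521-172370820 (- strand, Aurka), chr7:122159185-122159484 (+ strand, Plk1) and chr10:69352863-69353162 (- strand, Cdk1). The CHR letters lie within 50 bases of the start in all 4, and Cdk1 has a further copy upstream.

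Of the 26 mitosis genes called lower 21 matched a promoter in the table, with 22 promoters in all, and 18 of these (81.8%) held TTTGAA on either strand, 18 held CCAAT and 16 (72.7%) held both. Over all 67 mitosis genes, called or not, 67.2% of 58 promoters held TTTGAA and 69.0% held CCAAT. Among all tested genes TTTGAA was in 11.4% of 8213 promoters, CCAAT in 37.6% and both in 4.52%, and among all 32851 promoters of the table in 17.9%, 37.4% and 6.95%. Of the 18 promoters of called mitosis genes with TTTGAA 17 (94.4%) had the letters within 50 bases of the start, as had 26.2% of the promoters of tested genes that held them. Over every gene with a probe set called lower TTTGAA was in 53 of 306 promoters (17.3%), and over those called higher in 41 of 427 (9.60%). The genes called lower take in the mitosis genes above, so the 17.3% is not a separate result. These shares describe letters in a window, and a match is not a bound site.

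Few genes of DNA replication were called. Of 63 tested 1 fell, 0 rose and 62 were not called, with a median log2 change of -0.07. The 1 call was Rrm2, a ribonucleotide reductase subunit gene (-0.39 ± 0.10, adjusted p = 0.0327), whose 3 probe sets were all called lower. Pcna, the gene of the DNA polymerase clamp, was at 13476 and 14162 units at 12 h and 13309 and 12764 at 24 h. Both 24 h arrays were slightly lower, and its log2 change (-0.08 ± 0.09, adjusted p = 0.627) turned to 0.13 with quantile normalization (adjusted p = 0.314). The difference between the mitosis and replication lists was not tested. In the 67 replication promoters TTTGAA was found in 14.9% and CCAAT in 53.7%, and the E2F letters (TTTCGCGC, TTTCCCGC or TTTGGCGC, either strand) in 28.4%, against 3.88% of promoters of tested genes. Of 7 histone genes 1 fell, the variant histone gene H2ax (-0.66 ± 0.10, adjusted p = 0.0055), and the linker histone gene H1f2 was not called (-0.21 ± 0.14, adjusted p = 0.406). Single arrays decided the calls of Rrm2 (any of the 6 arrays of 0, 12 and 24 h, adjusted p up to 0.242) and H2ax (12 h replicate 2 or 24 h replicate 1, adjusted p up to 0.0713). They also ended without the filter on dim probe sets, with quantile normalization or without the variance trend for Rrm2 (adjusted p up to 0.106).

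Heat shock genes that were called all fell. The list holds mainly cytosolic chaperones and co-chaperones, and also the mitochondrial chaperonin genes Hspd1 and Hspe1, which were called. Of 41 tested 13 fell, 0 rose and 28 were not called, with a median log2 change of -0.277 and 7 of 41 above 0. Heat shock genes called lower numbered 4 and 7 without the first or second 12 h array, 3 and 1 without the first or second 24 h array and 6 without the variance trend. Hsph1 had the largest fall of the list. Fkbp4, an Hsp90 co-chaperone gene, was at 2013 and 1925 units at 12 h and 1221 and 1107 at 24 h (1.68-fold lower, -0.75 ± 0.11, adjusted p = 0.00344), and the Hsp90 activator gene Ahsa1 at 2424 and 2176 units at 12 h and 1532 and 1408 at 24 h (-0.64 ± 0.10, adjusted p = 0.00666). In both the times did not overlap.

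The inducible Hsp70 genes Hspa1a and Hspa1b are close copies, and how their shared signal divides is uncertain. Hspa1a was at 917.5 and 1090.1 units at 12 h and 551.2 and 669.1 at 24 h (-0.70 ± 0.14, adjusted p = 0.016) and Hspa1b at 4939.5 and 3468 units at 12 h and 2709 and 2849 at 24 h (-0.57 ± 0.15, adjusted p = 0.0427). Both remained above 0 h at 24 h in signal, where Hspa1a had been at 269.9 and 307.2 units and Hspa1b at 1322 and 1414. Hsph1 too stood at 2371 and 2501 units at 24 h against 951.7 and 971.7 at 0 h. Both Hsph1 and Hspa1a had been higher still at 6 h and had fallen before 12 h. Hsph1 came from 9279.7 and 7919.3 units at 6 h (-0.82 ± 0.10 from 6 h to 12 h, adjusted p = 0.00145). Hspa1a came from 3402.8 and 4085.4 (-1.88 ± 0.14, adjusted p = 6.03e-05). The Hsp70 partner gene Bag3 was lower (-0.66 ± 0.12, adjusted p = 0.0126). With 1 array left out, the calls ended for Fkbp4 (24 h replicate 2, adjusted p = 0.06), Ahsa1 (12 h replicate 1 or 24 h replicate 2, adjusted p up to 0.0888), Hspa1a (12 h replicate 2 or either 24 h array, adjusted p up to 0.142), Bag3 (any 12 h or 24 h array, adjusted p up to 0.116) and Hspa1b (either 0 h array, 12 h replicate 1 or either 24 h array, adjusted p up to 0.231). Calls ended as well without the variance trend for Hspa1a and Hspa1b (adjusted p up to 0.119) and without the filter on dim probe sets for Hspa1b (adjusted p up to 0.1).

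The Hsph1 promoter is shown because it holds the letters of a heat shock element, where heat shock factors are known to bind. The element was read on both strands as GAA, TTC and GAA, or TTC, GAA and TTC, with 2 bases between neighbouring triplets, and the match is in capitals.
Hsph1: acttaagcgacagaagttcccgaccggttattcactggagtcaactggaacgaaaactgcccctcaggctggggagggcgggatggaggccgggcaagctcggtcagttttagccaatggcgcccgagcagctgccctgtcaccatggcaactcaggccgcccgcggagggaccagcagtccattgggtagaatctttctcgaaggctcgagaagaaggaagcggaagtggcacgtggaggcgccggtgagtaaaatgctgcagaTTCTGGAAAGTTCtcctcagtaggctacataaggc
It lies at chr5:149636266-149636565 (- strand, Hsph1). Among the heat shock genes called lower 12 of 13 matched a promoter, and 4 of 15 promoters (26.7%) held the element: both of Hsph1, which overlap, 1 of 2 of Hspd1 and that of Hspe1, which share 1 region. Among all heat shock genes 14.9% of 47 promoters held it and among all tested genes 0.524%. The letters were matched exactly, so an element with a changed base was not counted. The promoters of Hspa1a and Hspa1b held no exact match, which does not show that they lack an element.

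Genes of the endoplasmic reticulum stress and chaperone list were called at a rate near that of all tested genes, 6.82% against 7.36%. Of 44 2 rose, 1 fell and 41 were not called. Hspa5, the main chaperone of that compartment, was not called (-0.18 ± 0.12, adjusted p = 0.419), nor was the stress factor gene Ddit3 (-0.24 ± 0.11, adjusted p = 0.239). The 1 that fell was Asns, asparagine synthetase, at 1132 and 1111 units at 12 h and 623.5 and 594.9 at 24 h (1.81-fold lower, -0.86 ± 0.11, adjusted p = 0.00196). Those that rose were Crebrf, a regulator of the unfolded protein response (0.58 ± 0.15, adjusted p = 0.0405), and Derl1, a protein retrotranslocation gene (0.48 ± 0.10, adjusted p = 0.0206). Leaving out 1 array ended the calls of Crebrf (any of the 6 arrays of 0, 12 and 24 h, adjusted p up to 0.24) and Derl1 (any 12 h or 24 h array, adjusted p up to 0.19). Further losses came without the filter on dim probe sets for Crebrf (adjusted p up to 0.0868) and without the variance trend for Crebrf and Derl1 (adjusted p up to 0.0732).

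Asns belongs also to amino acid supply, where 8 of 33 genes fell and 0 rose, with a median log2 change of -0.198. Phgdh, the gene of the first enzyme of serine synthesis, was at 2719.9 and 2812 units at 12 h and 1579 and 1562 at 24 h (1.75-fold lower, -0.81 ± 0.09, adjusted p = 0.00122). Slc7a5, a transporter gene for large neutral amino acids, was at 223.2 and 309.8 units at 12 h and 133.8 and 125.2 at 24 h (1.88-fold lower, -0.91 ± 0.16, adjusted p = 0.0096). Other genes of serine and one-carbon metabolism fell too: Mthfd2 (-0.75 ± 0.18, adjusted p = 0.031), Psat1 (-0.62 ± 0.13, adjusted p = 0.02) and Shmt2 (-0.50 ± 0.10, adjusted p = 0.019). Amino acid supply genes called lower numbered 4 without either 0 h array, 2 and 1 without the first or second 12 h array, 1 without either 24 h array and 2 without the variance trend. Calls that ended when 1 array was left out were those of Slc7a5 (12 h replicate 2 or either 24 h array, adjusted p up to 0.0912), Mthfd2 (any of the 6 arrays of 0, 12 and 24 h, adjusted p up to 0.199) and Psat1 and Shmt2 (any 12 h or 24 h array, adjusted p up to 0.156). Other settings ended calls too, without the filter on dim probe sets for Mthfd2 (adjusted p up to 0.0748) and without the variance trend for Mthfd2, Psat1 and Shmt2 (adjusted p up to 0.0904).

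Of the ribosome biogenesis genes a minority were called, by small amounts. Of 66 tested 9 fell and 0 rose, with a median log2 change of -0.232 and 9 of 66 above 0. Biogenesis genes called lower numbered 3 without either 0 h array, 2 and 0 without the first or second 12 h array, 1 and 0 without the first or second 24 h array, 0 without the variance trend and 4 without the filter on dim probe sets. The largest called falls were those of the small nucleolar ribonucleoprotein gene Rrp9 (-0.69 ± 0.15, adjusted p = 0.0201) and the RNA polymerase subunit gene Polr1c (-0.55 ± 0.10, adjusted p = 0.0126). Ncl, which encodes nucleolin, fell (-0.41 ± 0.09, adjusted p = 0.0216), while Myc was not called (-0.09 ± 0.13, adjusted p = 0.724). The 4 Ncl probe sets ran from -0.56 to 0.03, with 2 called lower. The calls that rested on single arrays were those of Rrp9 and Polr1c (12 h replicate 2 or either 24 h array, adjusted p up to 0.143) and Ncl (any of the 6 arrays of 0, 12 and 24 h, adjusted p up to 0.167). They also ended without the variance trend for Rrp9, Polr1c and Ncl (adjusted p up to 0.0814) and without the filter on dim probe sets for Ncl (adjusted p up to 0.0525).

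Of 40 cytosolic ribosomal protein genes 4 fell and 1 rose. Their median log2 change of -0.246 became -0.041 with quantile normalization and 36 of 40 were below 0 as deposited. Ribosomal protein genes called lower numbered 1 without either 0 h array, 1 without either 12 h array, 1 without either 24 h array, 1 without the variance trend, 1 without the filter on dim probe sets, 2 with quantile normalization and 7 with median-centred arrays. The 1 that rose was Rps27 (0.82 ± 0.20, adjusted p = 0.035). Of 64 oxidative phosphorylation genes 4 fell and 0 rose, with a list median of -0.106, led by Cyc1, the cytochrome c1 gene of complex III (-0.52 ± 0.10, adjusted p = 0.012). Respiratory chain genes called lower numbered 2 without either 0 h array, 0 without either 12 h array, 0 without either 24 h array, 0 without the variance trend and 2 without the filter on dim probe sets. For comparison, 22 housekeeping reference genes had a median of -0.137 with 1 called lower. Single arrays decided the calls of Rps27 and Cyc1 (any 12 h or 24 h array, adjusted p up to 0.194). Calls ended as well without the filter on dim probe sets for Rps27 (adjusted p up to 0.089) and without the variance trend for Rps27 and Cyc1 (adjusted p up to 0.0787).

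The p53 target list was called upward in part, without the genes most used as its readouts. Of 35 tested 8 rose, 0 fell and 27 were not called, with a median log2 change of 0.218 and 28 of 35 above 0. Members called higher numbered 4 and 5 without the first or second 12 h array, 3 and 0 without the first or second 24 h array and 5 without the variance trend. Trp53inp1, a gene for a p53-induced nuclear protein, was at 3333 and 3205 units at 12 h and 5262 and 5699.6 at 24 h (1.67-fold, 0.74 ± 0.10, adjusted p = 0.00294). Sesn1, a stress-induced inhibitor of mTORC1, was at 650.9 and 742.9 units at 12 h and 1348 and 1429 at 24 h (1.96-fold, 0.97 ± 0.14, adjusted p = 0.00332), and Ddit4, another such inhibitor, at 1808 and 1663 units at 12 h and 3031 and 3187 at 24 h (1.78-fold, 0.83 ± 0.12, adjusted p = 0.00411). All 3 had no overlap between times.

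Cdkn1a, the gene of p21, an inhibitor of cyclin-dependent kinases, was at 7347 and 7324 units at 12 h and 8582 and 8342 at 24 h. Both 24 h arrays were above both 12 h arrays, but the change was not called (0.21 ± 0.09, adjusted p = 0.215). The p53 ubiquitin ligase gene Mdm2 (0.20 ± 0.10, adjusted p = 0.294) and the cyclin G1 gene Ccng1 (0.22 ± 0.09, adjusted p = 0.173) were not called either. The sulfatase gene Sulf2 (0.76 ± 0.16, adjusted p = 0.0191) and the phospholipid transfer gene Pltp (0.75 ± 0.15, adjusted p = 0.0161) rose. With 1 array left out, the calls ended for Trp53inp1, Sesn1 and Ddit4 (24 h replicate 2, adjusted p = 0.0535, 0.0534 and 0.0656), Pltp (12 h replicate 1 or either 24 h array, adjusted p up to 0.143) and Sulf2 (any 12 h or 24 h array, adjusted p up to 0.183). Further losses came without the variance trend for Sulf2 (adjusted p up to 0.0616).

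**Figure D3:**
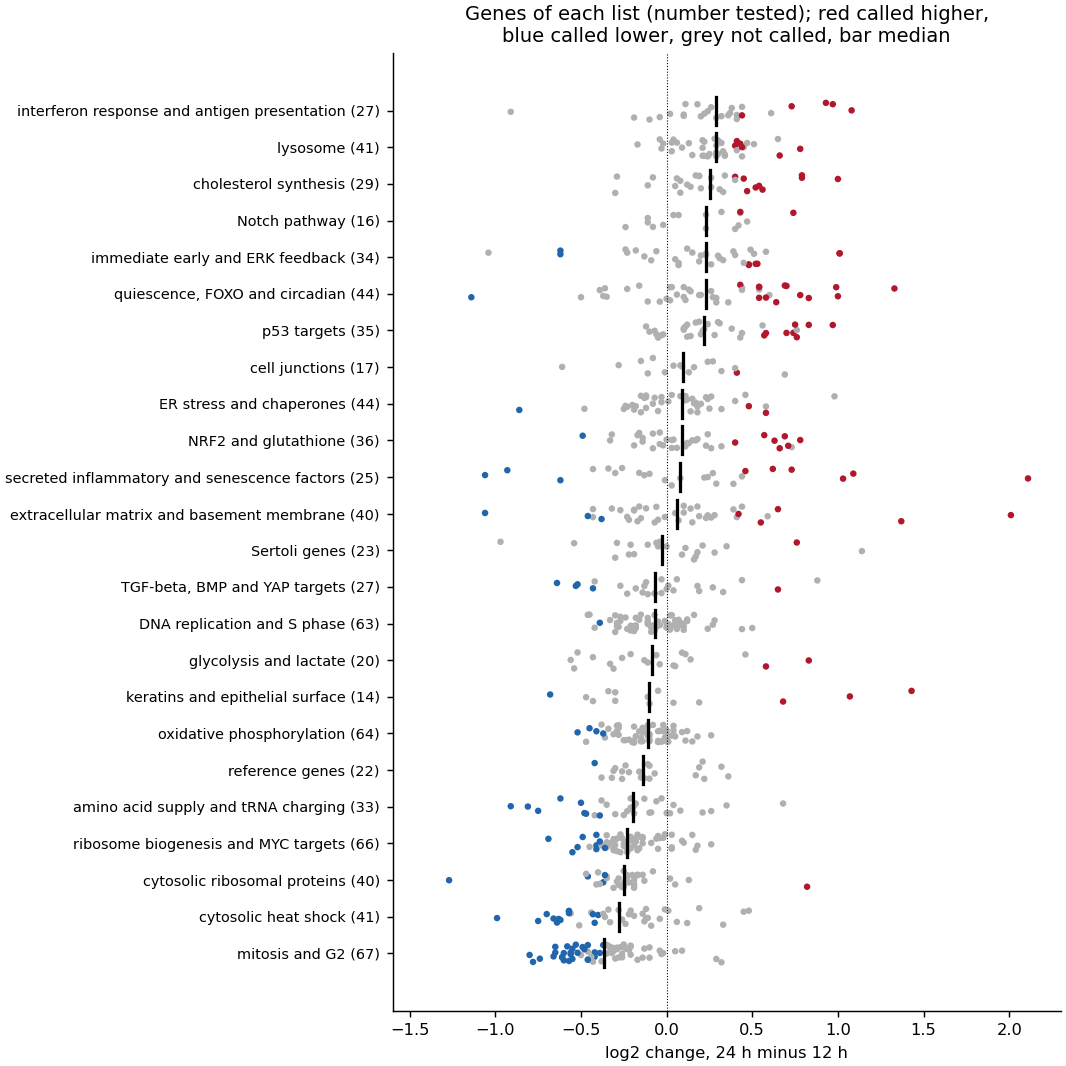
Log2 change from 12 h to 24 h (x axis) of every tested gene in the 24 gene lists with at least 14 tested genes (rows, number tested in brackets), ordered by median; red points were called higher, blue lower, grey not called, and black bars are medians. Mitosis genes lie lowest with a median of -0.368, and interferon, lysosome and cholesterol genes highest at 0.290, 0.287 and 0.256.

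Genes of cholesterol and fatty acid synthesis that were called all rose. Of 29 tested 9 rose, 0 fell and 20 were not called, with a median log2 change of 0.256. Lipid synthesis genes called higher numbered 5 and 6 without the first or second 0 h array, 4 and 3 without the first or second 12 h array, 3 and 2 without the first or second 24 h array and 4 without the variance trend. The fatty acid desaturase genes led. Scd1, which makes monounsaturated fatty acids, was at 2126 and 1878 units at 12 h and 3983 and 4065 at 24 h (2.0-fold, 1.0 ± 0.12, adjusted p = 0.00131), and Fads1, which acts on polyunsaturated ones, at 1699 and 1492 units at 12 h and 2679 and 2878 at 24 h (1.73-fold, 0.79 ± 0.10, adjusted p = 0.00178). Its neighbour in the pathway Fads2 was at 971.7 and 992.7 units at 12 h and 1695 and 1730.0 at 24 h (0.79 ± 0.11, adjusted p = 0.00332).

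All 3 desaturase genes were higher on both 24 h arrays. Among sterol genes Msmo1 rose (0.56 ± 0.11, adjusted p = 0.0179), as did Insig2, a sterol sensor partner (0.54 ± 0.13, adjusted p = 0.0301). Sqle, the gene of squalene epoxidase, was at 1437 and 1368 units at 12 h and 1366 and 1535 at 24 h; the times overlapped and it was not called (0.05 ± 0.10, adjusted p = 0.84). Leaving out 1 array ended the calls of Fads2 (24 h replicate 2, adjusted p = 0.0518), Msmo1 (any 12 h or 24 h array, adjusted p up to 0.156) and Insig2 (any of the 6 arrays of 0, 12 and 24 h, adjusted p up to 0.207). Other settings ended calls too, without the variance trend for Msmo1 and Insig2 (adjusted p up to 0.08) and without the filter on dim probe sets for Insig2 (adjusted p up to 0.056).

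Lysosomal genes had small changes: of 41 tested 6 rose, 0 fell, 35 were not called and 37 had a change above 0, with a median log2 change of 0.287. The hydrolase genes Galc (0.78 ± 0.13, adjusted p = 0.00628), Glb1 (0.66 ± 0.16, adjusted p = 0.0347), Arsa (0.44 ± 0.10, adjusted p = 0.0315), Tpp1 (0.43 ± 0.09, adjusted p = 0.0184) and Gaa (0.41 ± 0.10, adjusted p = 0.038) rose. Lysosomal genes called higher numbered 2 without either 0 h array, 1 and 0 without the first or second 12 h array, 0 without either 24 h array, 1 without the variance trend and 3 with median-centred arrays. Calls that ended when 1 array was left out were those of Galc (12 h replicate 2 or either 24 h array, adjusted p up to 0.0847), Tpp1 (any 12 h or 24 h array, adjusted p up to 0.134) and Glb1, Arsa and Gaa (any of the 6 arrays of 0, 12 and 24 h, adjusted p up to 0.248). They also ended without the variance trend for Tpp1, Glb1, Arsa and Gaa (adjusted p up to 0.0808), without the filter on dim probe sets for Glb1 (adjusted p up to 0.0844) and with median-centred arrays for Arsa and Gaa (adjusted p up to 0.0663).

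Among called genes of antigen presentation Tapbp and H2-K1 had the smallest adjusted p. Tapbp, the gene of tapasin, which loads peptides on class I molecules, was at 1258 and 1395 units at 12 h and 2652 and 2567 at 24 h (1.95-fold, 0.97 ± 0.10, adjusted p = 0.0009). H2-K1, a class I heavy chain gene, was at 407.6 and 441.4 units at 12 h and 930.1 and 906.3 at 24 h (2.11-fold, 1.08 ± 0.13, adjusted p = 0.00124). The 24 h arrays of both lay above the 12 h arrays. Class I genes are near-identical to one another in places, and the 3 probe sets of H2-K1 ran from 0.10 to 1.08 with 1 called, so its signal is uncertain.

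Of the 27 genes of the interferon and antigen presentation list 5 rose, 0 fell and 22 were not called, at a median of 0.290. The other 3 were the peptide transporter gene Tap2 (0.73 ± 0.18, adjusted p = 0.0385), Lgals3bp (0.93 ± 0.20, adjusted p = 0.0206) and Ifitm3 (0.44 ± 0.11, adjusted p = 0.0326). Genes of this list called higher numbered 3 without either 0 h array, 2 without either 12 h array, 2 without either 24 h array and 2 without the filter on dim probe sets. The calls that rested on single arrays were those of Lgals3bp (any 12 h or 24 h array, adjusted p up to 0.136) and Tap2 and Ifitm3 (any of the 6 arrays of 0, 12 and 24 h, adjusted p up to 0.27). Calls ended as well without the filter on dim probe sets for Lgals3bp, Tap2 and Ifitm3 (adjusted p up to 0.102) and with median-centred arrays or without the variance trend for Ifitm3 (adjusted p up to 0.0926).

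Of 25 secreted inflammatory and senescence genes 6 rose, 3 fell and 16 were not called. The collagenase gene Mmp13 was at 395.9 and 340.4 units at 12 h and 789.7 and 819.5 at 24 h (2.12-fold, 1.09 ± 0.15, adjusted p = 0.00335). The stromelysin gene Mmp10 was at 293.1 and 415.8 units at 12 h and 724.9 and 743.8 at 24 h (2.04-fold, 1.03 ± 0.17, adjusted p = 0.0079), while Timp1 fell. Secreted genes called higher numbered 3 without either 12 h array and 2 and 1 without the first or second 24 h array. Secreted genes called lower numbered 1 without either 12 h array and 1 without either 24 h array. Of 5 tested complement and acute phase genes 3 rose at a median of 0.902: C1s1, C1ra, the partner protease of C1s1 (0.90 ± 0.17, adjusted p = 0.012), and Clu. Complement genes called higher numbered 3 and 1 without the first or second 12 h array and 1 and 2 without the first or second 24 h array. Single arrays decided the calls of Mmp13 (24 h replicate 2, adjusted p = 0.0521), Mmp10 (12 h replicate 1 or either 24 h array, adjusted p up to 0.0884) and C1ra (12 h replicate 2 or either 24 h array, adjusted p up to 0.1).

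Matrix genes had no common direction: of 40 tested 5 rose and 3 fell. Matrix genes called higher numbered 3 without either 0 h array, 4 and 2 without the first or second 12 h array, 2 and 3 without the first or second 24 h array and 3 without the variance trend. Matrix genes called lower numbered 1 without either 0 h array, 1 without either 12 h array, 1 without either 24 h array, 1 without the variance trend and 1 without the filter on dim probe sets. Besides Dcn and Tnc, the thrombospondin gene Thbs1 (0.65 ± 0.11, adjusted p = 0.00646) rose. Among 27 targets of TGF-beta, BMP and YAP signalling Thbs1 was the 1 that rose and 4 fell: the BMP-responsive genes Id1 (-0.64 ± 0.12, adjusted p = 0.0123), Id2 (-0.53 ± 0.13, adjusted p = 0.0381) and Id3 (-0.43 ± 0.11, adjusted p = 0.0456) and 1 other. Ccn2, the connective tissue growth factor gene, was not called (-0.18 ± 0.10, adjusted p = 0.337). Signalling targets called lower numbered 1 without either 0 h array, 0 without either 12 h array, 0 without either 24 h array, 0 without the variance trend and 1 without the filter on dim probe sets. With 1 array left out, the calls ended for Thbs1 (12 h replicate 2 or 24 h replicate 1, adjusted p up to 0.0793), Id1 (any 12 h or 24 h array, adjusted p up to 0.108) and Id2 and Id3 (any of the 6 arrays of 0, 12 and 24 h, adjusted p up to 0.304). Further losses came without the variance trend for Id1, Id2 and Id3 (adjusted p up to 0.124) and without the filter on dim probe sets for Id2 and Id3 (adjusted p up to 0.0905).

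Growth arrest and clock genes that were called rose, with 1 exception. Of 44 quiescence, FOXO and circadian genes 13 rose, 1 (Gadd45g) fell and 30 were not called, with a median log2 change of 0.230. Quiescence and clock genes called higher numbered 5 and 4 without the first or second 12 h array, 3 and 2 without the first or second 24 h array and 6 without the variance trend. Besides Dbp, the thioredoxin-binding protein gene Txnip was at 510.6 and 574.6 units at 12 h and 979.5 and 976.1 at 24 h (1.77-fold, 0.83 ± 0.12, adjusted p = 0.00393). The clock repressor gene Nr1d2 (1.0 ± 0.23, adjusted p = 0.0299) and the retinoblastoma gene Rb1 (0.99 ± 0.20, adjusted p = 0.015) rose. Cirbp, known to be induced by cold, was at 22.1 and 67.4 units at 12 h and 76.0 and 75.2 at 24 h, where 1 of the 12 h arrays was near the offset (0.64 ± 0.38, adjusted p = 0.353, not called). Leaving out 1 array ended the calls of Txnip (24 h replicate 2, adjusted p = 0.0541), Rb1 (any 12 h or 24 h array, adjusted p up to 0.143) and Nr1d2 (any of the 6 arrays of 0, 12 and 24 h, adjusted p up to 0.203). Other settings ended calls too, without the filter on dim probe sets or without the variance trend for Nr1d2 (adjusted p up to 0.0892).

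Of 34 immediate early and ERK feedback genes 6 rose and 2 fell. Immediate early genes called higher numbered 2 without either 0 h array, 3 and 2 without the first or second 12 h array, 2 without either 24 h array, 2 without the variance trend and 3 without the filter on dim probe sets. Jun, which encodes a subunit of the AP-1 transcription factor, was at 624.4 and 612.0 units at 12 h and 1241 and 1285 at 24 h (2.01-fold, 1.01 ± 0.10, adjusted p = 0.0009), and Zfp36l1, which encodes an mRNA decay factor, at 892.5 and 762.4 units at 12 h and 1748 and 1617 at 24 h (2.01-fold, 1.01 ± 0.12, adjusted p = 0.00122). Both were higher on both 24 h arrays, without overlap between times. Fosl1, a gene for another AP-1 subunit, fell (-0.62 ± 0.14, adjusted p = 0.0261), as did the urokinase receptor gene Plaur (-0.62 ± 0.11, adjusted p = 0.0102), and the feedback inhibitor gene Spred2 rose (0.53 ± 0.12, adjusted p = 0.0259). Calls that ended when 1 array was left out were those of Plaur (any 12 h or 24 h array, adjusted p up to 0.0952), Spred2 (either 0 h array, 12 h replicate 2 or either 24 h array, adjusted p up to 0.17) and Fosl1 (any of the 6 arrays of 0, 12 and 24 h, adjusted p up to 0.157). They also ended without the variance trend for Spred2 and Fosl1 (adjusted p up to 0.0572) and without the filter on dim probe sets for Fosl1 (adjusted p up to 0.0546).

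Of 36 NRF2 and glutathione genes 7 rose and 1 fell. NRF2 list genes called higher numbered 5 and 4 without the first or second 12 h array and 2 without either 24 h array. The number called lower was 0 without 12 h replicate 1, without either 24 h array or without the variance trend. Mgst1, a membrane-bound glutathione transferase gene, was at 3898 and 3729 units at 12 h and 6614 and 6534 at 24 h (1.72-fold, 0.78 ± 0.09, adjusted p = 0.00124). The metal-binding metallothionein genes Mt1 (0.69 ± 0.10, adjusted p = 0.00384) and Mt2 (0.63 ± 0.11, adjusted p = 0.00796) and the cytosolic glutathione transferase gene Gstm1 (0.66 ± 0.10, adjusted p = 0.00384) rose. Among 20 glycolysis genes 2 rose, against a list median of -0.085, and of 16 Notch pathway genes 2 rose at a median of 0.231. Glycolysis genes called higher numbered 0 without either 0 h array, 0 without either 12 h array, 0 without either 24 h array, 0 without the variance trend and 0 without the filter on dim probe sets. Notch genes called higher numbered 0 without either 0 h array, 1 and 0 without the first or second 12 h array, 0 without either 24 h array, 0 without the variance trend, 1 without the filter on dim probe sets, 1 with quantile normalization and 1 with median-centred arrays. The receptor gene Notch1 was not called (0.40 ± 0.17, adjusted p = 0.181). The calls that rested on single arrays were those of Mt1 (24 h replicate 1, adjusted p = 0.0564), Gstm1 (24 h replicate 2, adjusted p = 0.0665) and Mt2 (12 h replicate 1 or either 24 h array, adjusted p up to 0.0804).

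Sertoli genes changed little as a group, and the summed signal of the list was 83649 to 84622 units at 12 h and 75896 to 79106 at 24 h. Of 23 tested 1 rose, 0 fell and 22 were not called, with a median log2 change of -0.025 that changed sign under other settings (-0.080 to 0.056). The 1 was Clu, the gene of the Sertoli product clusterin, at 2412 and 2014 units at 12 h and 4205 and 3323 at 24 h (1.69-fold, 0.76 ± 0.15, adjusted p = 0.0138). All 4 of its probe sets were called higher, by 0.76 to 1.21. The 2 arrays at 24 h differed by more than those at 12 h. Leaving out 1 array ended the call of Clu (12 h replicate 2 or 24 h replicate 1, adjusted p up to 0.13). Calls ended as well without the variance trend for Clu (adjusted p up to 0.0595).

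The Sertoli transcription factor genes Gata4 (0.35 ± 0.14, adjusted p = 0.173), Sox9 (0.16 ± 0.22, adjusted p = 0.729) and Wt1 (0.17 ± 0.20, adjusted p = 0.68) were not called. Over the 8 arrays Gata4 was at 393.2 to 596.5 units, Sox9 at 108.8 to 197.7, Wt1 at 88.7 to 179.8, the inhibin subunit gene Inhbb at 175.8 to 321.3 and the stem cell factor gene Kitl at 1195 to 2390. Other defining Sertoli genes were too dim to test: Amh at 3.5 to 13.8 units, Fshr at 9.9 to 63.5, Dhh at 23.4 to 56.1 and Cldn11 at 4.1 to 22.9. Some defining Sertoli markers were thus bright enough to test in the line and others were not. The transferrin gene Trf had no probe set with 1 symbol and has no value here.

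Markers of other cells of the testis ranged from dim to clearly above the offset. Of 27 germ cell genes on the array 4 were tested. Among those too dim to test, Ddx4, Dazl, Sycp3 and Tnp1 stayed at or below 37.1 units, while the protamine genes Prm1 and Prm2 were at 32.2 to 84.6 and 5.9 to 71.3 units. Summed over all 27 genes on the array, tested or not, the signal was 1821 to 1851 units at 12 h and 2446 to 2470 at 24 h. Of the 4 tested 1 was called: Kit, the stem cell factor receptor gene, at 504.4 and 511.4 units at 12 h and 1225 and 1222 at 24 h (2.35-fold, 1.23 ± 0.17, adjusted p = 0.00315). Kit is part of the germ cell sum, and its own rise in units was larger than that of the sum. The rest of the germ cell list together was thus not higher at 24 h. Of 9 Leydig and steroidogenic genes on the array 5 were tested, and all 9 summed to 5451 to 5503 units at 12 h and 6488 to 6499 at 24 h. Star, the gene of the mitochondrial cholesterol carrier, was at 107.2 and 119.6 units at 12 h and 229.9 and 287.2 at 24 h (2.06-fold, 1.04 ± 0.24, adjusted p = 0.0279), while Cyp11a1 and Cyp17a1 stayed at or below 14.1 units. Hsd3b1, also too dim to test, was at 4.9 to 36.2 units, with means of 34.9 at 12 h and 10.6 at 24 h. With 1 array left out, the call ended for Star (any 12 h or 24 h array, adjusted p up to 0.219). Further losses came without the filter on dim probe sets or without the variance trend for Star (adjusted p up to 0.0822).

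Of 11 tested smooth muscle genes 0 rose and 2 fell, the caveolin gene Cav1 (-0.62 ± 0.16, adjusted p = 0.0439) and the tropomyosin gene Tpm2 (-0.44 ± 0.12, adjusted p = 0.0466), and the list summed to 22624 to 23320 units at 12 h and 22148 to 23018 at 24 h. The peritubular myoid marker genes Acta2 (163.3 to 337.2 units over the 8 arrays, -0.38, adjusted p = 0.419) and Des (53.2 to 102.0 units, adjusted p = 0.996) were not called. Myh11, Tagln and Cnn1 were too dim to test. Of 5 macrophage and blood genes and 2 endothelial genes tested 0 were called. Ptprc, which marks white blood cells, stayed at or below 33.4 units, but other macrophage markers were brighter. Cd68 was at 142.7 to 321 units over the 8 arrays (0.65 from 12 h to 24 h, adjusted p = 0.0591). Csf1r was at 111.2 to 169.6 and Adgre1 at 46.2 to 88.4. Of the endothelial genes Cdh5 stayed at or below 45 units and Kdr was at 53.9 to 90.2. Tek was at 1.5 to 36.3 units and Pecam1 at 9.1 to 70.7. Each of these was too dim to test, and each had a higher mean at 24 h than at 12 h. Pecam1 rose most, from a 12 h mean below the offset of 22 to a 24 h mean of 63.2 units. Summed over all 21 macrophage and blood genes on the array, tested or not, the signal was 1113 to 1115 units at 12 h and 1172 to 1244 at 24 h. Over all 18 endothelial genes on the array it was 736 to 760 units at 12 h and 829 to 857 at 24 h. The part of such cells in the results above was not tested. Among 14 keratin and epithelial surface genes 3 rose, Krt13 and the membrane protein genes Upk3b (1.07 ± 0.23, adjusted p = 0.0206) and Emp2 (0.68 ± 0.13, adjusted p = 0.0123), and 1 fell, the galectin gene Lgals3 (-0.68 ± 0.12, adjusted p = 0.00891). Of 17 cell junction genes 1 rose, the junctional adhesion gene F11r (0.41 ± 0.10, adjusted p = 0.0339). The count was 0 with any 1 of the 6 arrays of 0, 12 and 24 h left out, without the variance trend, without the filter on dim probe sets or with median-centred arrays. Leaving out 1 array ended the calls of Cav1 (either 0 h array, 12 h replicate 1 or either 24 h array, adjusted p up to 0.228), Tpm2 (any of the 6 arrays of 0, 12 and 24 h, adjusted p up to 0.274), Emp2 (12 h replicate 2 or either 24 h array, adjusted p up to 0.0952), Lgals3 (12 h replicate 1 or 24 h replicate 2, adjusted p up to 0.105) and Upk3b (any 12 h or 24 h array, adjusted p up to 0.14). Other settings ended calls too, without the filter on dim probe sets for Cav1, Tpm2 and Upk3b (adjusted p up to 0.0992), with the 12 h and 24 h arrays alone for Cav1 (adjusted p up to 0.0521), without the variance trend for Cav1, Tpm2, Emp2, Lgals3 and Upk3b (adjusted p up to 0.123) and with quantile normalization for Tpm2 (adjusted p up to 0.0552).

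The second 12 h were set against the first 12 h with 1 contrast, the change from 12 h to 24 h minus that from 0 h to 12 h, since both steps use the 12 h arrays. It called 1054 probe sets (7.76%), 523 positive (3.85%) and 531 negative (3.91%). A positive difference means a larger rise or a smaller fall in the second 12 h. It called 346 and 307 without the first or second 0 h array, 297 and 292 without the first or second 12 h array and 360 and 327 without the first or second 24 h array.

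Hsph1 had the most negative difference, -3.30 ± 0.18, adjusted p = 8.3e-06: it changed by 2.31 ± 0.10 in the first 12 h and by -0.99 in the second, after a peak at 6 h. Cdkn1a followed with -2.86 ± 0.16, adjusted p = 8.3e-06, from a first step of 3.06 ± 0.09 and a second of 0.21, and Ccng1 with -2.23 ± 0.15, adjusted p = 3.57e-05 from 2.45 ± 0.09 and 0.22. Hspa1a had -2.42 ± 0.24, adjusted p = 0.000391 and the adaptor complex gene Ap1s2 -2.44 ± 0.36, adjusted p = 0.00337. For Cdkn1a and Ccng1 the second step was thus small beside the first, while Hsph1 and Hspa1a, net higher at 12 h than at 0 h, were already falling between 6 h and 12 h and fell further to 24 h. Nts (-2.72 ± 0.53, adjusted p = 0.014), Wdr78 (-2.29 ± 0.46, adjusted p = 0.0156) and Serpina10 (-2.18 ± 0.51, adjusted p = 0.028) were also among the most negative. The call of this difference for Nts ended without 12 h replicate 2 (adjusted p = 0.124), and that of Wdr78 without the filter on dim probe sets, 12 h replicate 1 or 24 h replicate 2 (adjusted p = 0.0512 to 0.127). That of Serpina10 ended without the filter or any 1 of the 0 h, 12 h and 24 h arrays other than 0 h replicate 2 (adjusted p = 0.0621 to 0.186).

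The most positive differences belonged to genes that had fallen in the first step. Hnrnpd, an RNA-binding protein gene, was at 1854 and 1965 units at 0 h, 618 and 553 at 12 h and 1117 and 1093 at 24 h. Its fall and partial return gave a difference of 2.56 ± 0.18, adjusted p = 4.56e-05, called under all 14 alternatives. Nbl1 (3.47 ± 0.53, adjusted p = 0.004), Zfp1 (2.90 ± 0.53, adjusted p = 0.0103) and Cacna2d1 (3.87 ± 0.67, adjusted p = 0.00792) were nearer to their 0 h signals at 24 h than at 12 h. Their 12 h signals were low beside the offset of 22: 40.2 and 17.0 units, 40.0 and 22.2, and 21.9 and 25.6, in that order. The 12 h arrays enter both steps, so low 12 h signals alone can give a fall and a return. Genes picked by the size of this difference favour that pattern. At 24 h both arrays lay below both 0 h arrays for Nbl1 (133.4 and 111.8 against 191.1 and 140.7 units) and Cacna2d1 (140.7 and 115 against 156.1 and 213.2). Both lay above them for Zfp1 (122.4 and 146.8 against 113.9 and 103.9). Gna13, a G protein subunit gene (2.38 ± 0.27, adjusted p = 0.000883), had fallen by 2.05 and was not called in the second step (0.33 ± 0.15, adjusted p = 0.229), so its difference lay in the first step. The SNARE gene Vti1a (2.56 ± 0.47, adjusted p = 0.0108), Agtrap (2.64 ± 0.68, adjusted p = 0.0396) and Cyp2j6 (2.36 ± 0.53, adjusted p = 0.0257) were the others of the 8. The call of Zfp1 ended without 12 h replicate 2 (adjusted p = 0.0805) and that of Cacna2d1 without 12 h replicate 1 (adjusted p = 0.0574). Vti1a lost its call without 0 h replicate 2, 12 h replicate 1 or 24 h replicate 2 (adjusted p = 0.0502 to 0.0707). Cyp2j6 lost it without the filter, 0 h replicate 2, 12 h replicate 2 or either 24 h array (adjusted p = 0.0714 to 0.174). Agtrap lost it without the filter, the variance trend or any 1 of these 6 arrays but 12 h replicate 1 (adjusted p = 0.073 to 0.263).

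Set out by list, over all 7707 genes the difference was called in 611 (7.93%), positive in 277 (3.59%) and negative in 334 (4.33%), with a median of -0.012. For p53 targets it was called positive in 0 of 35 and negative in 18 (12 to 15 with 1 of the 0 h, 12 h or 24 h arrays left out), with a median of -1.02, the list having changed by a median of 1.31 in the first 12 h and 0.218 in the second. For heat shock genes 2 of 41 were positive and 19 negative (8 to 11 negative with 1 array left out, fewest without 12 h replicate 2), with medians of 0.361 and -0.277 for the steps. For mitosis genes 0 of 67 were positive and 19 negative (2 to 8 with 1 array left out, fewest without 12 h replicate 1), with medians of 0.129 and -0.368. For cholesterol and fatty acid synthesis 12 of 29 were positive and 0 negative (3 to 8 positive with 1 array left out, fewest without 12 h replicate 2), with medians of -0.383 and 0.256. Immediate early genes had 9 of 34 positive and 0 negative (3 to 6 positive with 1 array left out), with medians of -0.216 and 0.230. For amino acid supply 1 of 33 was positive and 0 negative, with medians of -0.09 and -0.198. For DNA replication 0 of 63 were positive and 14 negative, with medians of 0.273 and -0.07. For endoplasmic reticulum stress and chaperones 2 of 44 were positive and 12 negative, with medians of 0.255 and 0.092. In both of these lists fewer were negative with any 1 of the 0 h, 12 h or 24 h arrays left out. The remaining lists are not set out here.

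**Figure D4:**
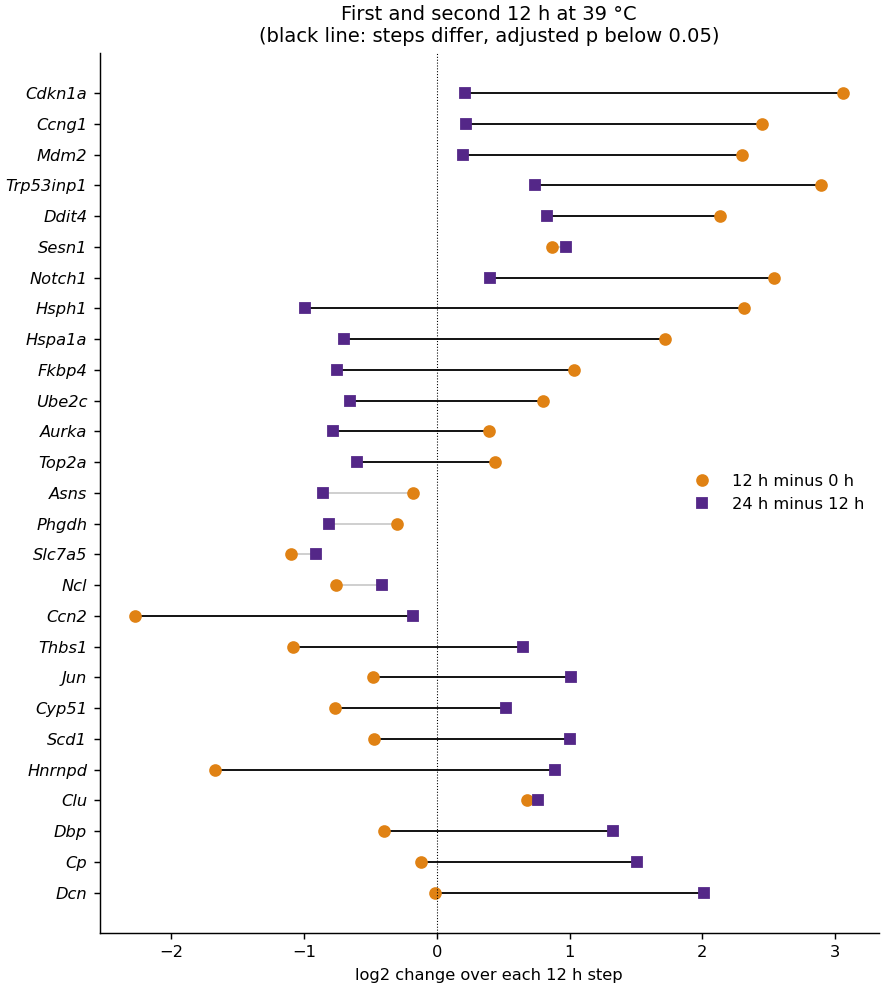
Log2 change of 27 genes over the first 12 h (orange circles, 12 h minus 0 h) and the second 12 h (purple squares, 24 h minus 12 h) at 39 °C, each from 2 arrays a time in the limma fit; a black line joins steps that differed at adjusted p below 0.05, a grey line steps that were not called different. Cdkn1a moved by 3.06 and then 0.21, Hsph1 by 2.31 and then -0.99, and Dcn by -0.01 and then 2.01.

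The genes that led the second step differed in what they had done before. Dcn was at 1410 to 1471 units at 0 h and 1403 to 1466 at 12 h, so its rise came after 12 h (difference 2.01 ± 0.19, adjusted p = 0.000248). Cp (1.64 ± 0.22, adjusted p = 0.00197), Tnc (1.49 ± 0.33, adjusted p = 0.0239), Dbp (1.73 ± 0.27, adjusted p = 0.00515), Scd1 (1.47 ± 0.21, adjusted p = 0.00257), Jun (1.48 ± 0.18, adjusted p = 0.00121) and Thbs1 (1.74 ± 0.18, adjusted p = 0.000564) likewise differed between steps. Each had a first step below 0, from -1.08 for Thbs1 to -0.12 for Cp. Dcn and these genes were named for their rise from 12 h to 24 h, and that rise is part of the difference. Such a choice, with the 12 h arrays in both steps, favours positive differences and first steps below 0. A first step below 0 was not always a called fall: that of Cp was not called (-0.12 ± 0.13, adjusted p = 0.524). The difference of Dbp was not called without 12 h replicate 1 (adjusted p = 0.0517), and that of Tnc without the filter on dim probe sets, the variance trend or any 1 of the 0 h, 12 h and 24 h arrays other than 12 h replicate 1 (adjusted p up to 0.193). For C1s1, Aldh3a1, Cebpd, Krt13, Sesn1 and Clu the steps were not called different: the first steps were 0.98, 0.87, 0.92, 1.98, 0.87 and 0.68, and the second 1.68, 1.45, 1.37, 1.43, 0.97 and 0.76. The smallest adjusted p of these 6 differences was 0.164, for Aldh3a1.

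The first 6 h share no array with the step from 12 h to 24 h, so their calls could be set side by side. Over 0 h to 6 h 1175 probe sets (8.65% of those tested) were called higher and 1266 (9.33%) lower. Of the 512 probe sets called higher from 12 h to 24 h 95 (18.6%) had been called lower over the first 6 h, which is 7.50% of that list, and 44 (8.59%, or 3.74% of that list) higher. Of the 422 called lower 55 (13%, or 4.68% of that list) had been called higher and 35 (8.29%, or 2.76%) lower. No test was made of these overlaps.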

How the data were processed

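RNA of TTE3 cells (5 µg a sample) was labelled with biotin through one-cycle cDNA synthesis and in vitro transcription and hybridised to 430A arrays, 2 a time, per the labels' protocols. The deposited values were linear intensities, 1 for each of 22690 probe sets; the software that made them is not given in the sources used here. Their trimmed means (2% off each end) were 499.34 to 499.86 units on the 8 arrays, so they were used as scaled, and all columns belonged to a sample of the series. The 64 control probe sets were left out. Symbols came from GEO's platform annotation: 20380 probe sets had 1 symbol, 691 had several and 1555 had none and stayed unnamed. RefSeq promoters were of GRCm38.p6.

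Signals were turned to log2(signal + 22), 22 units being the 20th percentile of all values. Probe sets with a mean log2 at or above the 40th percentile (6.5858) were kept, 13576 in all. Models were fitted with limma 3.58.1 (lmFit, then eBayes with a variance trend) in R 4.3.3 on all 8 arrays, 4 times as groups, and p-values were Benjamini-Hochberg adjusted over all tested probe sets. With 2 arrays against 2, an exact permutation test of a single gene cannot go below p = 0.333. Summaries used Python 3.11.15 and pandas 2.3.3. Named were the 15 largest rises and falls among called probe sets with 1 symbol, a mean of at least 100 units at the higher time and no overlap between times, the 8 largest step differences of each sign by the same rule, up to 5 called members of each list, and a fixed set of genes. The 31 gene lists and the genes named were chosen with earlier results of these data known. Alternatives covered the offset, filter, scaling, arrays fitted, variance trend and replicate number.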

Additional observations from a re-analysis of the deposited data

How the results depend on the processing

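The 934 calls from 12 h to 24 h became 529 (301 higher, 228 lower) without the filter on dim probe sets, where more probe sets are tested, and 369 (251 and 118) without a variance trend, a change whose cause was not tested. With 1 of the 0 h, 12 h or 24 h arrays left out, an alternative that for the 0 h arrays was chosen after seeing the data, the range was 84 to 488, with 58 to 298 higher and 26 to 190 lower; each such fit has fewer arrays. Under the other settings the total was 883 to 1240. For the difference between steps the 1054 calls became 542 (254 positive, 288 negative) without the filter, 524 (285 and 239) without the trend, and 292 to 360 (134 to 176 and 125 to 188) with 1 of these 6 arrays left out. Pcna turned from -0.08 to 0.13 with quantile normalization; its cause was not tested, and it was called under neither. Replicate numbers were no pairing by the labels, and the correlations of same-numbered arrays' deviations were 0.05 to 0.18; with the replicate block 1212 were called (658 higher, 554 lower), 934 of them also called without it, and 1445 for the difference between steps. The precision is limited by 2 arrays a time.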
